A study of Mus musculus with 6 samples.

Results

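The 9 genes of the hypertrophy and fetal gene programme, *Nppb*, *Myh7*, *Acta1*, *Ankrd1*, *Xirp2*, *Rcan1*, *Fhl1*, *Gata4* and *Mef2c*, were examined in mouse hearts. They were chosen by name and matched by symbol, and all 9 were found among the 24346 genes of the deposited tables. All mice were C57BL/6 J males with no engineered allele. Normal chow was given to the C group and a NASH diet, rich in fat, cholesterol and sucrose with added bile acid, to the N group. The NP group received that diet mixed with the drug pemafibrate, which selectively modulates PPARα, at 0.1 mg/kg. Each group had 2 libraries, 6 in all. The labels give 3 weeks of feeding and the study's methods a longer period, and the ages of the mice are not given in the sources used here. The tissue label is heart, the extraction text in the same labels mentions liver, and neither says which chambers were taken or whether each library was 1 animal. *P* values therefore measure the spread between libraries, which may be technical.

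The adult heart under pressure or volume load returns in part to the gene expression of the fetal heart. Cardiomyocytes then release more natriuretic peptides, use more of the slow β-myosin and the skeletal α-actin beside the adult isoforms, and add Z-disc and intercalated disc proteins. Calcineurin, acting through NFAT, and transcription factors such as GATA4 and MEF2C are among the regulators of this response.

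FPKM count the fragments of a gene, divided by transcript length and by the mapped fragments of the library, so that levels of different genes can be compared. The cardiomyocyte markers, such as *Tnnt2* and *Actn2*, summed to between 35800 and 42940 FPKM in the 6 libraries. Atrial markers separated the groups, with 278 and 393 FPKM summed over 12 genes in C samples and 3838 to 6439 in the N and NP libraries. Of these 12, 6 passed the test for N versus C and 3 for NP versus C, against 1.55% and 0.0387% of all genes tested. The atrial marker *Sln* was listed at 0 and 0.450 FPKM in C samples and lay between 250.3 and 518 FPKM in the other 4. The 4 ventricular markers summed to 32840 and 35360 FPKM in C samples and to 17460 to 25440 in the others, and none of them passed. That sum was mostly *Myl3* and *Myl2*, the latter at 24050 and 26370 FPKM in C samples and 11860 to 18370 in the others. For N versus C, 3 of the 4 had values below 0 and *Irx4*, at 0.16, above. The macrophage markers summed to 318 and 352 FPKM in C samples, 541 and 636 in N samples and 230.4 and 263 in NP samples. Of 8 tested adipocyte markers 7 had values above 0 for N versus C, with a median of 2.82 on the log2 scale, and none passed. *Adipoq*, which encodes the adipocyte hormone adiponectin, was at 0.593 and 1.13 FPKM in C samples, 16.0 and 14.6 in N samples and 1.66 and 11.9 in NP samples, so that the NP libraries were apart. The adipocyte sum, 1017 to 1357 FPKM, was mostly *Fabp4* at 995 to 1341 and does not show this. C replicate 2 had 598 FPKM of hepatocyte markers against 14.5 to 48.3 in the other libraries. C replicate 1 also held more of some of them, with *Alb* at 10.8 FPKM against 0.555 to 2.04 in the N and NP libraries. Of 8 tested hepatocyte markers, 7 had values below 0 for N versus C and *Cyp2e1* above, and none passed. Fewer cells of a type and less RNA per cell cannot be told apart in such samples, and the part of these differences in the results below was not tested. The C libraries were also deeper, at about 21500000 and 26100000 reads against 8190000 to 8750000, so that depth and diet cannot be told apart in comparisons with the C group. Every member was nevertheless covered by at least about 550 reads in every library.

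By the mean over the 6 libraries, the members ranked *Ankrd1* (581 FPKM), *Acta1* (175), *Nppb* (158), *Rcan1* (67.2), *Fhl1* (67.0), *Xirp2* (61.7), *Gata4* (40.5), *Myh7* (27.6) and *Mef2c* (13.2). The lowest *Ankrd1* library, at 409 FPKM, lay above every library of the other 8 genes. The highest *Mef2c* library, at 15.4 FPKM, lay below every library of the others. *Acta1* and *Nppb* overlapped each other, as did *Rcan1*, *Fhl1* and *Xirp2*, and the range of *Gata4* overlapped that of *Myh7* below it and those of *Rcan1* and *Xirp2* above it. The highest *Rcan1* library, at 100.4 FPKM, also lay above the lowest *Acta1* library, at 92.0. All 9 passed the filter on low values, a mean FPKM of 0.5, that left 12923 genes for the test.

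**Figure D1:**
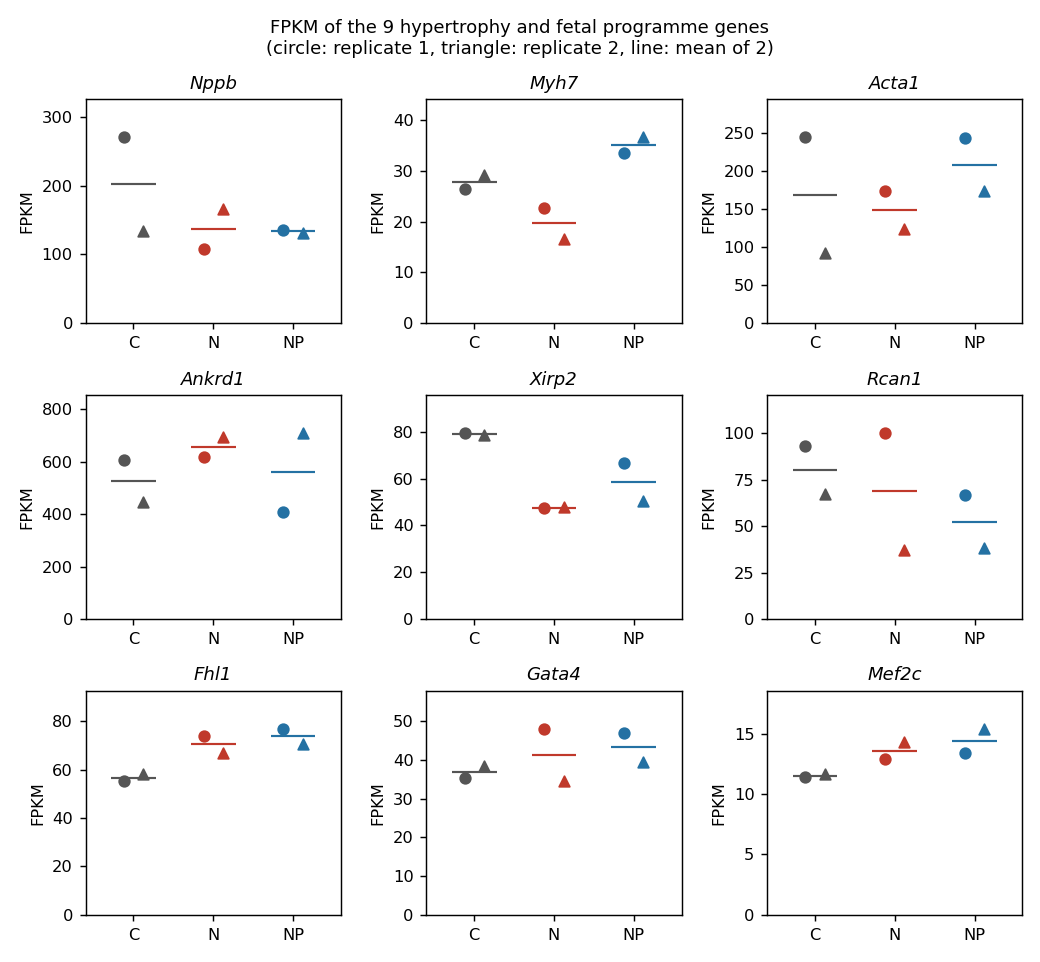
FPKM of each of the 9 genes (y axis, from 0) in the C, N and NP groups (x axis), with a circle for replicate 1, a triangle for replicate 2 and a line for the mean of both. The N libraries of *Xirp2* and *Myh7* lie below their C libraries, whereas the 2 C libraries of *Nppb* and *Acta1* are more than 2-fold apart.

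In the main fit, which ignores the replicate numbers, none of the 9 genes passed limma's test, at an adjusted *P* value of 0.05, in any of the 3 comparisons. For N versus C, 1.55% of all genes passed, for NP versus N 1.39% and for NP versus C 0.0387%. At an unadjusted *P* value under 0.05 there were 3 members for N versus C, *Myh7* and *Xirp2* lower and *Fhl1* higher in the N group, against 15% of all genes. There was 1 for NP versus N, *Myh7*, against 8.04% of all genes. There were 3 for NP versus C, *Xirp2* lower and *Fhl1* and *Mef2c* higher in the NP group, against 8.05%. The 2 libraries of one group lay beyond both of the other for 5 of 9 members for N versus C, 3 for NP versus N and 6 for NP versus C. Over all genes tested this was the case for 49.4%, 29.8% and 42.5%. The median difference over the 9 members was -0.04 for N versus C, 0.08 for NP versus N and 0.22 for NP versus C on the log2(FPKM + 1) scale, where all genes had medians of -0.03, 0.03 and -0.01. The comparisons share libraries, so that they are not independent of each other. A further fit added the replicate number to the model as a block in N and NP only. Against C it took N and NP at their fitted levels for replicate number 1, not as whole groups. In that fit, *Xirp2* and *Fhl1* were among 1070 genes that passed for N at replicate number 1 versus C.

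**Figure D2:**
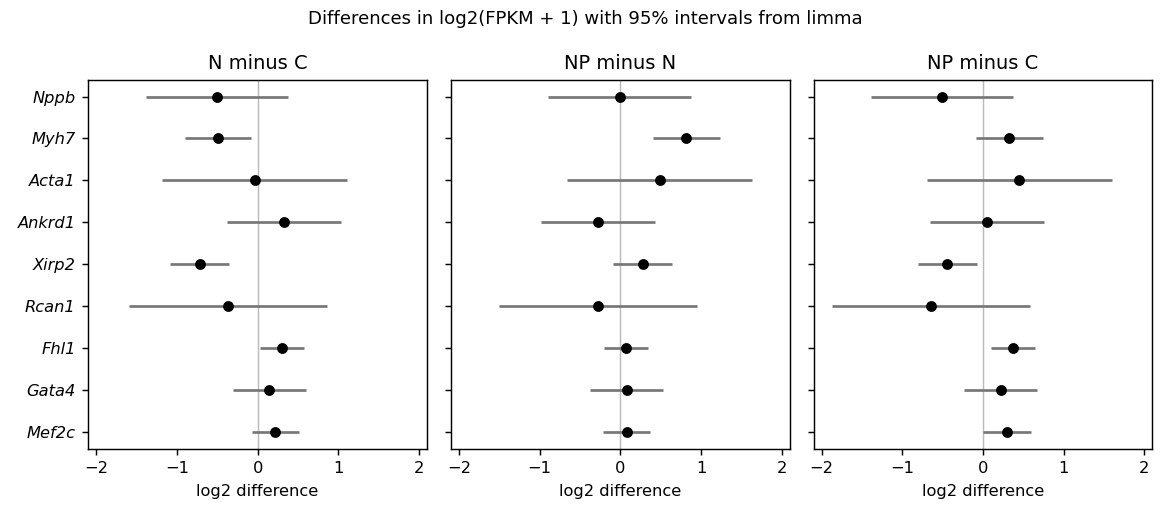
Difference in log2(FPKM + 1) of each gene (points; x axis) with its 95% interval from limma (lines), for the N group minus the C group, the NP group minus the N group and the NP group minus the C group. The intervals of *Rcan1*, *Acta1* and *Nppb* are the widest, and those of *Xirp2* for N versus C and of *Myh7* for NP versus N lie farthest from 0.

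*Nppb* encodes B-type natriuretic peptide, which cardiomyocytes secrete when the wall is stretched, and it lies on chromosome 4 from 147985786 to 147987205 in GRCm38. Its neighbour *Nppa*, which encodes atrial natriuretic peptide, is transcribed from the same strand, and the RefSeq starts of the pair are 14822 bases apart. Sequence before each start is shown because these neighbours had unlike values. Capitals mark the motifs searched on both strands, which were CATTCC for the MCAT element, AGATAA or TGATAA for GATA factors, GGAAAA for NFAT, TATAAA for the TATA box, CANNTG for the E-box, the CArG box and the MEF2 site. The *Nppb* start used here, at 147985900, lies 114 bases inside the gene span given above, which covers all transcripts, so that its motifs stand before this start but within that span. In the 250 bases before it were an MCAT motif on the minus strand at 105 to 100, directly followed by an E-box at 99 to 94 that overlaps a GATA motif at 95 to 90, a second GATA motif at 84 to 79 and a TATA motif at 31 to 26. Only the stretch from the MCAT motif to the second GATA motif, chr4:147985795-147985821 (+ strand), is printed. The *Nppa* window, chr4:148000472-148000721 (+ strand), holds E-boxes at 195 to 190 and 66 to 61, a GATA motif at 122 to 117 and a TATA motif at 9 to 4.
Nppb: GGAATGCAGCTGATAAatcagAGATAA
Nppa: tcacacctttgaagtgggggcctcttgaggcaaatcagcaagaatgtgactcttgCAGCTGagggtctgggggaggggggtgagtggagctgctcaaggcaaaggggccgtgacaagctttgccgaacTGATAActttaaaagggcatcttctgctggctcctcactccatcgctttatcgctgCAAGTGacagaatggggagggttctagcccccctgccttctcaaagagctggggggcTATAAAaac
Of the 32851 RefSeq windows of the same length, 12.6% held MCAT, 16.6% GATA, 20.4% NFAT, 12.4% TATA, 66.2% an E-box, 1.47% a CArG box and 2.92% a MEF2 site.

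*Nppb* was at 271 and 133 FPKM in C samples, 108 and 166 in N samples and 136 and 131 in NP samples. C replicate 1 was the highest of the 6, and the groups overlapped in each comparison. The log2 difference was -0.50 for N versus C (standard error 0.36, 95% interval -1.38 to 0.38, limma adjusted *P* = 0.578). Without C replicate 1 it was 0.01 and without C replicate 2 it was -1.01, so that the C library kept decided its size. For NP versus N it was -0.01 (interval -0.89 to 0.87), which leaves room for a change of over 1.5-fold in either direction.

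*Nppa*, which is not one of the 9 genes, was at 304 and 158 FPKM in C samples, 1992 and 2647 in N samples and 2082 and 3259 in NP samples. Every N and NP library lay above both C libraries. It rose by 3.39 on the log2 scale in the N group (standard error 0.37, limma adjusted *P* = 0.0134), with an adjusted *P* of 0.0792, 0.0646 and 0.0944 without C replicate 2, N replicate 1 and N replicate 2. The NP group differed from the C group by 3.57 (limma adjusted *P* = 0.0911) and from the N group by 0.18. The former passed in 2 of the 19 alternatives, without C replicate 1 (limma adjusted *P* = 0.0170) and with the replicate number as a block in N and NP only (0.0399). *Nppb* was 89.3% and 84.6% of *Nppa* in C samples, 5.44% and 6.27% in N samples and 6.52% and 4.02% in NP samples. The log2 ratio averaged -0.20 ± 0.05 in C, -4.10 ± 0.15 in N and -4.29 ± 0.49 in NP (SD, n = 2). *Nppa* is itself one of the 12 atrial markers, whose sum was higher in the same 4 libraries. It made up a large part of that sum, at 304 of 393 FPKM in C replicate 1 and 1992 of 3838 in N replicate 1. Of the 12 markers, 10 had values above 0 for N versus C and 2 below. The part of atrial tissue in the ratio of *Nppb* to *Nppa* was not tested.

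*Myh7* encodes the slow β-myosin heavy chain, which the mouse heart replaces after birth with the α-myosin of *Myh6*. It lies on the minus strand of chromosome 14 from 54970684 to 54994626. RefSeq gives 2 starts 77 bases apart, and the window of the upstream one, chr14:54994627-54994876 (minus strand), is shown because *Myh7* had the largest difference of the 9 genes for NP versus N. It holds an MCAT motif on the opposite strand at 201 to 196 bases before the start and an E-box at 106 to 101, in capitals.
Myh7: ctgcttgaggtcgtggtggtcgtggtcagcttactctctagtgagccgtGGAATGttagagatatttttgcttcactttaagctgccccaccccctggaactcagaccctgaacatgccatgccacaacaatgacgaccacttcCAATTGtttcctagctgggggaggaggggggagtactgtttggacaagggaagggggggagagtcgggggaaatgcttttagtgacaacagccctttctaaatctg

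The *Myh7* level was 26.4 and 29.3 FPKM in C samples, 22.8 and 16.7 in N samples and 33.6 and 36.8 in NP samples. None of the 3 groups overlapped another. The NP mean was 1.78 times the N mean, with a log2 difference of 0.82 (standard error 0.17, interval 0.41 to 1.23) that did not pass after adjustment (limma adjusted *P* = 0.132, 0.0690 to 0.406 over the alternatives). For N versus C it was -0.49 (standard error 0.17, interval -0.90 to -0.08, limma adjusted *P* = 0.257), and for NP versus C 0.33 (limma adjusted *P* = 0.681). For N versus C it was -0.71 without N replicate 1, -0.28 without N replicate 2 and -0.30 with FPKM scaled to the same sum of cardiomyocyte markers. These markers moved in the same directions, with a median over 10 genes of -0.30 for N versus C and 0.18 for NP versus N, and their part in the *Myh7* differences was not tested. The N libraries enter both of the first comparisons, so that a low N value moves each of them.

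*Myh6* was at 5501 and 5024 FPKM in C samples, 5671 and 3841 in N samples and 6856 and 4814 in NP samples, and the groups overlapped. *Myh7* was thus 0.402% to 0.764% of *Myh6*. The log2 ratio of *Myh7* to *Myh6* averaged -7.56 ± 0.20 in C, -7.90 ± 0.08 in N and -7.35 ± 0.45 in NP (SD, n = 2), and N samples had the lowest values. Of the 75-base windows in the *Myh7* transcripts, 15.3% also occurred in *Myh6*, and 3.35% lay opposite the antisense transcript *Mhrt*. The library kit keeps the strand, but the strand setting used in the quantification is not given in the sources used here, and the assignment of shared reads is uncertain. *Mhrt* was at 127 and 139.7 FPKM in C samples, 143 and 129.7 in N samples and 169.6 and 156 in NP samples.

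*Acta1* encodes skeletal α-actin, a sarcomeric actin of skeletal muscle that the fetal heart also expresses, on chromosome 8 from 123891758 to 123894775. It was at 245 and 92.0 FPKM in C samples, 173 and 124 in N samples and 244 and 174 in NP samples. The 2 C libraries were 2.67-fold apart and spanned both other groups. Both NP libraries lay above both N libraries, although NP replicate 2 and N replicate 1 differed by less than 1 FPKM. The log2 difference was -0.04 for N versus C (standard error 0.47, interval -1.18 to 1.11, limma adjusted *P* = 0.986) and 0.49 for NP versus N (interval -0.66 to 1.63, limma adjusted *P* = 0.953), the latter 0.24 without NP replicate 1 and 0.73 without NP replicate 2. Skeletal muscle markers, such as *Myh4*, which was listed at 0 in all 6 libraries, summed to between 4.48 and 6.99 FPKM over 12 genes. The part of skeletal muscle in the *Acta1* levels was not tested. The cardiac actin *Actc1* was at 9485 and 9404 FPKM in C samples, 9433 and 9455 in N samples and 9462 and 11320 in NP samples. The log2 ratio of *Acta1* to *Actc1* averaged -5.97 ± 0.99, -6.01 ± 0.35 and -5.65 ± 0.53 in the C, N and NP groups (SD, n = 2), within the spread of the replicates. The 250 bases before the *Acta1* start held MCAT, TATA, E-box and CArG motifs.

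**Figure D3:**
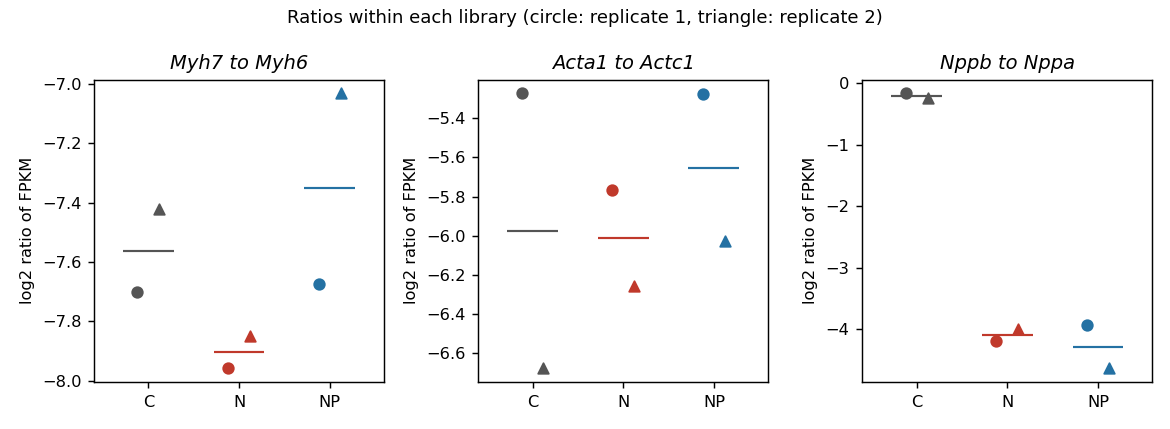
Log2 ratio of FPKM within each library (y axis, a separate range in each panel) for *Myh7* to *Myh6*, *Acta1* to *Actc1* and *Nppb* to *Nppa* in the C, N and NP groups, with a circle for replicate 1, a triangle for replicate 2 and a line for the mean. The *Nppb* to *Nppa* ratio is near 0 in both C libraries and between -4.64 and -3.94 in the other 4, whereas the other ratios differ by less than 2 on the log2 scale.

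*Xirp2* encodes an actin-binding protein of the intercalated disc and the Z-disc, on chromosome 2 from 67446000 to 67526620. The window before its start, chr2:67445752-67446001 (+ strand), is shown because *Xirp2* had the largest difference of the 9 genes for N versus C. It was the only window of the members with a MEF2 site, at 74 to 65 bases before the start, and it also holds overlapping E-boxes at 190 to 185 and 188 to 183.
Xirp2: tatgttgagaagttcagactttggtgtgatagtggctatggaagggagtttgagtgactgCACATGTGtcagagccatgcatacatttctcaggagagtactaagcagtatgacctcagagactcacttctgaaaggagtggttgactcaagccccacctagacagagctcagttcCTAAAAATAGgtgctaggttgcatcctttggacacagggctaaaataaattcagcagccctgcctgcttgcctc

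The *Xirp2* level was 79.6 and 78.5 FPKM in C samples, 47.2 and 47.9 in N samples and 66.5 and 50.5 in NP samples. The replicates of the C and N groups differed by less than 2%, and the NP libraries lay between those of the other groups. The C mean was 1.66 times the N mean, a log2 difference of -0.72 for N versus C (standard error 0.15, interval -1.08 to -0.36) with a limma adjusted *P* of 0.101. Leaving out each library in turn gave -0.73 to -0.71. With the replicate number as a block in N and NP only, *Xirp2* passed for N at replicate number 1 versus C (-0.63, limma adjusted *P* = 0.0440). The difference for NP versus N was 0.28 (interval -0.09 to 0.64, limma adjusted *P* = 0.811) and that for NP versus C was -0.44 (interval -0.81 to -0.08, limma adjusted *P* = 0.551). Both rested on which NP library was kept, at 0.083 and -0.64 without NP replicate 1 and at 0.47 and -0.25 without NP replicate 2. The cardiomyocyte markers were lower in the same direction, with none of the 10 passing for N versus C, and with FPKM scaled to the same cardiomyocyte sum *Xirp2* differed by -0.52 for N versus C and by 0.11 for NP versus N. The ventricular marker sum, mostly *Myl2* and *Myl3*, was 0.512 and 0.668 of the C mean in N samples, and its part in this difference was not tested.

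*Ankrd1* encodes a stretch-responsive ankyrin repeat protein that acts at the sarcomere and in the nucleus, on chromosome 19 from 36111965 to 36119844. It was at 607 and 449 FPKM in C samples, 617 and 694 in N samples and 409 and 711 in NP samples, which held both the lowest and the highest value. The log2 difference was 0.33 for N versus C (interval -0.38 to 1.03, limma adjusted *P* = 0.652) and -0.28 for NP versus N (interval -0.98 to 0.43, limma adjusted *P* = 0.962). The former was 0.54 without C replicate 1 and 0.11 without C replicate 2, and the latter turned to 0.12 without NP replicate 1. *Fhl1*, which encodes a LIM-domain protein that senses stretch at titin, is on chromosome X from 56731209 to 56793346. It was at 55.2 and 58.2 FPKM in C samples, 73.8 and 67.1 in N samples and 77.0 and 70.6 in NP samples. All 4 libraries on the NASH diet were above both C libraries, by 1.24-fold in the N mean and 1.30-fold in the NP mean. The log2 difference from the C group was 0.31 in the N group (standard error 0.11, limma adjusted *P* = 0.281), and for NP it was 0.37 (limma adjusted *P* = 0.528). With the replicate number as a block in N and NP only, *Fhl1* passed for N at replicate number 1 versus C (0.37, limma adjusted *P* = 0.0474).

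*Rcan1* encodes a feedback inhibitor of calcineurin, and one of its transcripts is itself a target of NFAT. It lies on chromosome 16 from 92391951 to 92466169, with 2 starts, of which the downstream one was preceded by 2 NFAT motifs and the upstream one by none. Its level was 93.1 and 67.4 FPKM in C samples, 100.4 and 37.1 in N samples and 66.6 and 38.3 in NP samples. Replicate 1 was 2.71-fold above replicate 2 in the N group, more than any 2 group means differed. The log2 differences of -0.37 for N versus C, -0.27 for NP versus N and -0.64 for NP versus C each had a standard error of 0.50 (limma adjusted *P* from 0.795 to 0.991). That for NP versus C was -1.03 without NP replicate 1 and -0.25 without NP replicate 2. With the replicate number as a block in N and NP only, which takes NP at replicate number 1, it was -0.091. The other 2 turned positive. For N versus C this was without N replicate 2, and for NP versus N without N replicate 1 or NP replicate 2. FPKM per gene do not separate the transcripts of the 2 starts.

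*Gata4* and *Mef2c* encode transcription factors of the cardiac programme, on chromosome 14 from 63198914 to 63271712 and on chromosome 13 from 83504017 to 83667079. *Gata4* was at 35.4 and 38.5 FPKM in C samples, 48.1 and 34.6 in N samples and 47.1 and 39.5 in NP samples. *Mef2c* was at 11.4 and 11.7 FPKM in C samples, 12.9 and 14.3 in N samples and 13.4 and 15.4 in NP samples. The NP libraries of both genes lay above their C libraries, as did the N libraries of *Mef2c*. The log2 difference for NP versus C was 0.22 for *Gata4* (standard error 0.18, limma adjusted *P* = 0.809) and 0.30 for *Mef2c* (standard error 0.12, limma adjusted *P* = 0.616). For N versus C it was 0.14 and 0.22 (limma adjusted *P* = 0.783 and 0.461).

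Beyond the 9 genes, 19 other markers of hypertrophy were tested, of which 3 passed for N versus C, all higher in the N group, against 1.55% of all genes. None passed for NP versus N and 2 for NP versus C, against 1.39% and 0.0387% of all genes. The 3 for N versus C were *Nppa* and the atrial myosin light chains *Myl7* and *Myl4*, which are also in the atrial marker list. *Myl7* was at 1.51 and 6.71 FPKM in C samples, 857 and 1193 in N samples and 781 and 1319 in NP samples. *Myl4* was at 2.14 and 6.71, 547 and 815, and 554 and 1029 FPKM. The log2 differences for N versus C were 7.85 for *Myl7* and 7.09 for *Myl4* (limma adjusted *P* = 0.00304 for each), and for NP versus C 7.85 and 7.26 (limma adjusted *P* = 0.0222 for each). In 7 of the 19 alternatives, among them leaving out either NP library, neither passed for NP versus C. For NP versus N, the smallest *P* values of this list belonged to *Spp1*, which encodes osteopontin (log2 difference -1.04, limma adjusted *P* = 0.102), and *Acta2*, smooth muscle actin (-0.28, limma adjusted *P* = 0.796). *Spp1* was low, at 0.156 and 0.418 FPKM in C samples, 2.03 and 1.32 in N samples and 0.300 and 0.290 in NP samples. All 9 macrophage markers also had values below 0 for NP versus N, and their part in the *Spp1* difference was not tested.

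Of the 12 tested genes of the natriuretic peptide system, *Nppa* alone passed, for N versus C, where 1.55% of all genes passed. *Npr3*, the clearance receptor, was at 3.73 and 5.95 FPKM in C samples, 6.52 and 8.18 in N samples and 9.76 and 9.61 in NP samples, with a log2 difference of 0.36 for NP versus N and 0.90 for NP versus C (limma adjusted *P* = 0.845 and 0.462). *Pde9a*, a cyclic GMP phosphodiesterase, differed by 0.25 for NP versus N (limma adjusted *P* = 0.890). No receptor, convertase or protease of the peptides passed in any comparison.

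None of the 23 tested genes of calcineurin and NFAT signalling passed in any comparison, against the 1.55%, 1.39% and 0.0387% of all genes above. *Myoz2*, a calcineurin-binding Z-disc protein, was at 1020 and 1070 FPKM in C samples, 694 and 669.6 in N samples and 728 and 822 in NP samples. The C libraries were the highest of the 6, and the log2 difference was -0.61 for N versus C (standard error 0.11, limma adjusted *P* = 0.0772). *Ppp3cc*, a catalytic subunit of calcineurin, differed by -0.37 (limma adjusted *P* = 0.227) in the same comparison. *Hdac4*, a class II histone deacetylase that represses MEF2, differed by 0.28 for NP versus N (limma adjusted *P* = 0.818).

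Among 24 tested genes of the Z-disc, the intercalated disc and mechanical sensing, 21 had values below 0 for N versus C, with a median of -0.18, and 19 had values above 0 for NP versus N, with a median of 0.11. Over all genes the medians were -0.03 and 0.03, and the N libraries enter both comparisons. None of the 24 passed in any comparison, against 1.55%, 1.39% and 0.0387% of all genes. Besides *Myoz2*, the smallest *P* values belonged to *Csrp3*, which encodes muscle LIM protein (log2 difference -0.38 for N versus C, limma adjusted *P* = 0.278), *Synpo2* (0.25 for NP versus N, limma adjusted *P* = 0.772), the giant sarcomere protein gene *Ttn* (0.37, limma adjusted *P* = 0.845) and *Pdlim3* (0.64 for NP versus C, limma adjusted *P* = 0.597). All cardiomyocyte markers but *Actc1*, whose C and N means were both 9444 FPKM, lay below 0 for N versus C, and 10 of 10 lay above 0 for NP versus N. *Ttn* and *Actn2* are in both lists, and the part of that shift in the list was not tested.

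None of 16 tested cardiac transcription factors passed, against 1.55%, 1.39% and 0.0387% of all genes in the 3 comparisons. *Tbx5*, a factor of the atria and the left ventricle, was at 7.43 and 9.72 FPKM in C samples, 14.9 and 12.4 in N samples and 17.4 and 15.5 in NP samples. It differed by 0.62 for N versus C and by 0.87 for NP versus C (limma adjusted *P* = 0.169 and 0.374), in the same libraries as the atrial markers. *Tbx20* differed by 0.31 for N versus C (limma adjusted *P* = 0.354). *Nkx2-5* differed by 0.40 and *Zfpm2*, a partner of GATA4, by 0.46 for NP versus N (limma adjusted *P* = 0.272 and 0.611). None of 14 tested immediate early genes passed either. In these, the smallest *P* values belonged to *Dusp1* and *Atf3* for N versus C (log2 differences -0.61 and 1.11, limma adjusted *P* = 0.203 and 0.444), *Dusp1* and *Ier2* for NP versus N (0.45 and 0.23, limma adjusted *P* = 0.577 and 0.843) and *Nr4a1* and *Ier3* for NP versus C (1.85 and 0.31, limma adjusted *P* = 0.619 and 0.770).

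**Figure D4:**
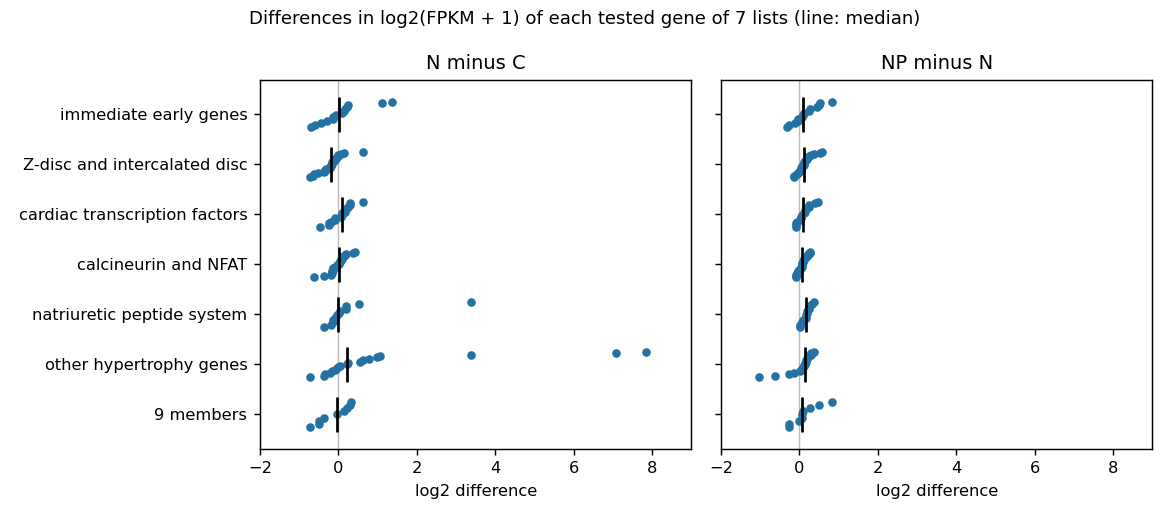
Difference in log2(FPKM + 1) of each tested gene (points; x axis) in 7 gene lists (y axis), for the N group minus the C group and the NP group minus the N group, with a line at each list's median. The points above 3 in the first panel are *Nppa*, shown in 2 lists, *Myl4* and *Myl7*, and the medians of all lists lie between -0.18 and 0.21.

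Genes with the pattern most like a member were sought among 585 tested genes with a mean of at least 5 FPKM and a range of at least 1 on the log2 scale. Likeness was the Pearson correlation of log2(FPKM + 1) over the 6 libraries, given as a description, since the points share depth and group. The closest to *Xirp2* were the slow-tonic myosin gene *Myh7b* (r = 0.98), *Atp6v0c-ps2* (0.98) and *Tmem164* (0.95). *Myh7b* was at 19.3 and 19.1 FPKM in C samples, 8.17 and 5.96 in N samples and 13.9 and 7.75 in NP samples. The closest to *Myh7* were *Smim3* (0.85), *Lrrc10* (0.84), which encodes a leucine-rich repeat protein of cardiomyocytes, and *Adamtsl4* (0.80). *Lrrc10* was at 177 and 158.5 FPKM in C samples, 113.5 and 98.0 in N samples and 203 and 158.4 in NP samples. The closest to *Ankrd1* were *Bcl6* (0.94), *Tspan4* (0.88) and *Tmem100* (0.87), and those to *Acta1* were the matrix genes *Eln* (0.79), *Ctgf* (0.77) and *Fbln2* (0.77). For *Nppb* they were the short RNAs *Mir8112* and *Mir6481* (0.91 each) and *Snora34* (0.87), the first pair listed at 0 in all but C replicate 1.

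**Figure D5:**
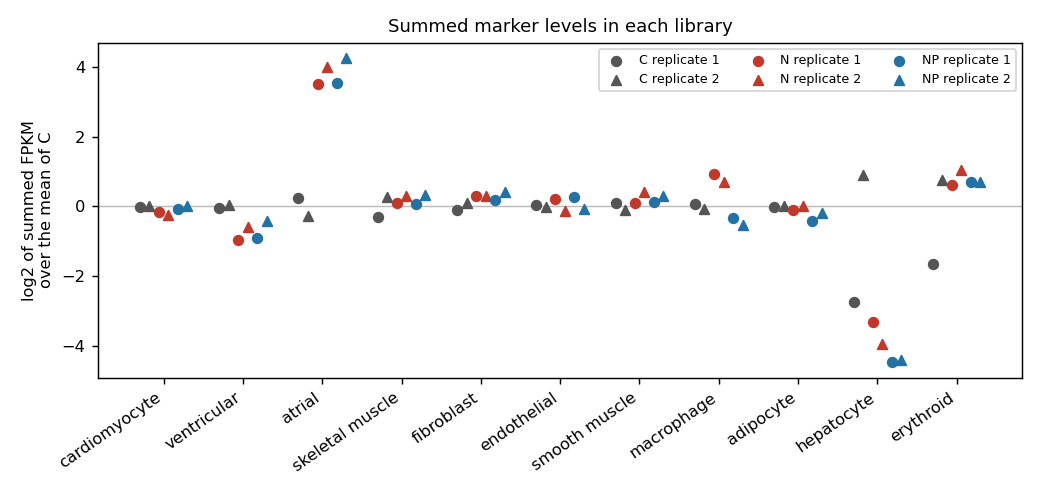
Log2 of the summed FPKM of each marker list in each library over the mean of C samples (y axis), for 11 cell types or tissues (x axis), with circles for replicate 1, triangles for replicate 2 and colours for the groups. The atrial sum is 11.5 to 19.2 times the C mean in the N and NP libraries, the ventricular sum 0.512 to 0.746 times, and the hepatocyte sum of C replicate 2 stands above that of the other 5.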

How the data were processed

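Heart RNA of 6 libraries was analysed, grouped by diet and dose as in the sample labels. The authors mapped single-end reads of 75 bases to mm10 with TopHat2 2.0.13, Bowtie2 2.2.3 and SAMtools 0.1.19, and the deposited FPKM were computed with Cufflinks 2.2.1. Read counts were not used here. The analysis used limma 3.58.1 in R 4.3.3 and Python 3.11.15. A linear model of 3 groups was fitted to log2(FPKM + 1) of 12923 genes, those whose mean FPKM reached 0.5, with empirical Bayes moderation and a mean trend, and two-sided *P* values were corrected over all tested genes after Benjamini and Hochberg. Log2 differences on this scale understate the change of genes with low values. An exact permutation test of 2 against 2 libraries cannot go below 0.333 and was not used. Depth was estimated from 4110 genes with 1 transcript, of which values of up to about 5 reads were used, 471 to 536 in a library. A fragment length of 200 bases was assumed, and the depth was chosen so that these values lay near multiples of 1 read. Between 74.1% and 78.8% of them then lay within 0.1 of a whole read, too few to recover counts. That share follows from the choice and is no check on the depth. Gene positions (all transcripts of a gene) and the 250-base windows are from RefSeq (GRCm38.p6). Positions were found for all 9 members and windows for 8, not for *Gata4*. Of the genes tested against other lists, those passing were named, or the 2 with the smallest *P* values where none passed, and *Nppa*, *Myh6* and *Actc1* always. The test was checked on simulated data in which all genes had the same spread between libraries. The genes of these data do not, so that the check does not cover members whose replicates lay far apart. The members, lists and tests were chosen with earlier results of these data known. Alternatives are described after the results.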

Additional observations from a re-analysis of the deposited data

How the results depend on the processing

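No member passed in any comparison under any of the 19 alternatives, with 1 exception. When the replicate number was a block within N and NP only, 2 members passed for N at replicate number 1 versus C. They were *Xirp2* (log2 difference -0.63, limma adjusted *P* = 0.0440) and *Fhl1* (0.37, limma adjusted *P* = 0.0474). The numbers were not taken as a pairing of all 3 groups. The difference of replicate 2 from replicate 1 correlated across genes at 0.0471 in C and N and 0.124 in C and NP (Pearson). By rank (Spearman) these correlations were higher, at 0.23 and 0.263. In N and NP the difference correlated at 0.458 (Pearson) and 0.555 (Spearman). Their column names differ in parallel, cont_heart and Cont_3w in N and pema_heart and Pema_3w in NP. The main fit ignores any set shared by N and NP libraries of the same number. The block in N and NP only allows for it in NP versus N. Against C, that block compares the fitted levels of N and NP at replicate number 1 with the mean of both C libraries. Its values against C are therefore no group differences adjusted for a set. Over all genes, 200, 179 and 5 passed for N versus C, NP versus N and NP versus C. With the replicate number as a block throughout they were 328, 200 and 20. With a block in N and NP only they were 1070, 301 and 103, with N and NP at replicate number 1 where compared with C. For N at replicate number 1 versus C, that last block gave a members' median of 0.14, with *Acta1* at 0.21 and *Rcan1* at 0.18. For NP at replicate number 1 versus C, *Ankrd1* was -0.19. Since these values stand for replicate number 1, they do not show a changed sign of the group differences. Scaling to the same total gave 309 genes for N versus C and 10 for NP versus C, and scaling to the same cardiomyocyte sum gave 358 for N versus C. Only the 2 groups compared gave 78 for NP versus N. For NP versus C a pseudocount of 0.1 gave 12, robust moderation 3 and no filter 0, where limma gave 1353 at an unadjusted *P* value of 0.05. The same total raised the median of all genes for N versus C to 0.12 and that of the members to 0.14, and the same cardiomyocyte sum raised them to 0.14 and 0.16. The members' median was 0.37 for NP versus C with the same total and -0.091 for NP versus N with the same cardiomyocyte sum.

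Without 1 library, the genes called ranged from 49 (without C replicate 2) to 183 for N versus C, from 67 (without NP replicate 2) to 108 for NP versus N and from 5 to 101 (without C replicate 1) for NP versus C. The members' medians ranged from -0.42 to 0.20, 0.078 to 0.27 and -0.17 to 0.26. The difference in the *Acta1* to *Actc1* ratio ranged from -0.74 to 0.67 for N versus C, -0.017 to 0.73 for NP versus N and -0.38 to 1.02 for NP versus C. That of *Myh7* to *Myh6* ranged from 0.23 to 0.87 for NP versus N and -0.11 to 0.53 for NP versus C, and that of *Nppb* to *Nppa* from -0.54 to 0.16 and from -4.44 to -3.74.

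The members below changed sign in some alternatives without passing in any of them, and the cause was not tested. For N versus C, *Acta1* was 0.019 with quantile normalization, 0.14 with the same total and 0.16 with the same cardiomyocyte sum. Leaving out 1 library there gave -0.74 to 0.67 for *Acta1*, -1.07 to 0.34 for *Rcan1*, -1.01 to 0.0068 for *Nppb* and -0.091 to 0.37 for *Gata4*. For NP versus N, *Nppb* was 0.025 with quantile normalization and 0.0014 with the same median, and *Fhl1*, *Gata4* and *Mef2c* were -0.10, -0.091 and -0.083 with the same cardiomyocyte sum. Leaving out 1 library there gave -0.31 to 0.30 for *Nppb*, -0.0006 to 0.14 for *Fhl1*, -0.15 to 0.31 for *Gata4*, -0.015 to 0.17 for *Mef2c*, -0.98 to 0.43 for *Rcan1*, -0.68 to 0.12 for *Ankrd1* and -0.14 to 0.50 for *Nppa*, which is no member. For NP versus C it gave -0.35 to 0.45 for *Ankrd1* and -0.25 to 1.15 for *Acta1*. Without changing sign, leaving out 1 library moved *Nppb* for NP versus C (-1.02 to -0.0018), *Gata4* for NP versus C (0.095 to 0.34) and the values of *Xirp2*, *Myh7*, *Ankrd1*, *Acta1* and *Rcan1* given with the results by over 1.5 times. With 2 libraries a group and 3 residual degrees of freedom, a *P* value over the threshold does not show that groups were alike.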
